A study of Mus musculus with 12 samples.

Results

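The 8 genes described here are Plet1, Slc28a3, Shf, Duox1, Faim2, Chit1, Gm19303 and 9130230L23Rik, out of 23301 gene names that the RNA-seq files of all 12 samples share. They were chosen by the size of their rise in FPKM from normal mammary gland to mouse mammary tumors, beside regions called as super-enhancers in those tumors. The difference between Normal and Tumor is therefore given as a description without a test, and the comparison that the choice did not use is that of the DMSO and C646 tumors. All animals were 12 weeks old, and each of the 4 groups had 3 replicates. The Normal group was abdominal and inguinal mammary gland of untreated FVB wild type females, with glands of 3 mice mixed for each replicate. The Tumor group was tumors of the thoracic mammary gland of untreated MMTV-PyVT females, also of FVB background, 1 mouse per replicate. In these mice the promoter of the mouse mammary tumor virus drives the polyomavirus middle T oncogene in the mammary epithelium. Gland site thus differed between Normal and Tumor, and its effect cannot be told apart from that of the tumor. The DMSO and C646 groups were tumors of MMTV-PyVT females injected with the solvent DMSO or with C646, each labelled 1 mg/kg. For these groups, tumors of the biggest size from 3 mice were sequenced.

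A super-enhancer is a long stretch of clustered enhancers with dense acetylation of histone H3 at lysine 27, and it often lies beside genes that a cell type uses strongly. p300, encoded by Ep300, and its paralog CBP, encoded by Crebbp, write this mark. C646 competes with acetyl-CoA for the catalytic site of p300 and CBP, so the DMSO and C646 tumors address the question of whether transcription beside such regions falls when the writer is inhibited.

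The genes encode 6 proteins of unlike function and 2 less studied transcripts. Plet1 is a surface glycoprotein known from placenta and epithelial progenitor cells, Slc28a3 (CNT3) takes up nucleosides together with sodium, and Faim2 is a membrane protein of the TMBIM family known for blocking Fas-driven cell death in neurons. Shf is an SH2-domain adaptor that binds PDGF receptors, Duox1 is a dual oxidase that releases hydrogen peroxide at the cell surface, and Chit1 is a secreted chitinase best known from activated macrophages. Gm19303 is a long intergenic non-coding RNA, and 9130230L23Rik is annotated as protein coding by GENCODE and as a long non-coding RNA by RefSeq. Of the 8, 7 were named beside a tumor super-enhancer in the list of 624 conventional regions, and Plet1, Slc28a3, Shf and Faim2 were also named in the list of 247 regions built on H3K4me3. Duox1 was in neither list, and its neighbor Shf was in both. The lists used here hold fewer regions than the study counts, so a gene absent from them may still lie beside a region that was not listed.

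On mm10 (GRCm38, GENCODE vM21) the genes lay on 6 chromosomes. Plet1 was at chr9:50494525-50505482 on the plus strand and Slc28a3 at chr13:58545399-58610877 on the minus strand. Duox1, at chr2:122315672-122347972 on the plus strand, and Shf, at chr2:122348892-122369162 on the minus strand, faced each other tail to tail with 920 bp between them. Faim2 was at chr15:99497012-99528165 and Gm19303 at chr15:51231640-51395610, both on the minus strand of the same chromosome but far apart. Chit1 was at chr1:134111242-134151540 on the plus strand and 9130230L23Rik at chr5:65979358-66004285 on the minus strand. The libraries did not keep the strand, so reads from overlapping antisense genes cannot be told apart. Of the 1947 exonic bases of Plet1, 261 were shared with the antisense gene Plet1os, which itself stayed at or below 0.990 FPKM in all 12 samples.

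RefSeq promoter windows (GRCm38.p6, 250 bases before to 50 after the start site) were matched for 7 of the 8 genes. Since the genes were high in the same tumors, the windows were searched on both strands for the letters of 4 motifs. These were a loose form of an AP-1 site (TGANTCA, with N for any base), a STAT site (TTCNNNGAA), an ETS site (CCGGAA) and a TATA box (TATAAA). The AP-1 letters were found for 3 of the 7 genes, Plet1, Chit1 and Gm19303, and in 7.81% of all 32851 windows. These 3 windows are shown because they carry the matches. Capitals mark AP-1 letters and, in Plet1, the TATA box as well.
Plet1 (chr9:50494275-50494574, plus strand): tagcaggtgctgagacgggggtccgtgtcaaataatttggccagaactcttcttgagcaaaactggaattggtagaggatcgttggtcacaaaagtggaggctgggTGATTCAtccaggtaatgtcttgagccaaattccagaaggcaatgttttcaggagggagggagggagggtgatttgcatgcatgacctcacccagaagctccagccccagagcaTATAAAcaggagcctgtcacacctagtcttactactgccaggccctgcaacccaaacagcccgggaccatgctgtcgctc
Chit1 (chr1:134110992-134111291, plus strand): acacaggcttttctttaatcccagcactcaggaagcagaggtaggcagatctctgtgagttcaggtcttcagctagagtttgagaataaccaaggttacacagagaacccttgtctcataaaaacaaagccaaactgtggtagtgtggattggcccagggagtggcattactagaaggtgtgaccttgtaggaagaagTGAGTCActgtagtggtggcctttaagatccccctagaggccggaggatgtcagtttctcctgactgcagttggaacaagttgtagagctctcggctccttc
Gm19303 (chr15:51395561-51395860, minus strand): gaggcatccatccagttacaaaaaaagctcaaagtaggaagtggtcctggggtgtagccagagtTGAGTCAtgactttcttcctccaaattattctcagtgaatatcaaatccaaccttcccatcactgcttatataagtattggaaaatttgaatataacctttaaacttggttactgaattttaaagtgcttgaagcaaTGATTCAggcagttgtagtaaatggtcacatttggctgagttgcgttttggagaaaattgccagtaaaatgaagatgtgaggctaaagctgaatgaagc
In Plet1 the AP-1 letters began at position -144 and the TATA box at position -30, counted in bases from the start site. In Chit1 the AP-1 letters began at -52, and in Gm19303 at -186 and again at -49. The match read TGAGTCA in Chit1 and at -186 in Gm19303, and TGATTCA in Plet1 and at -49 in Gm19303. TATA boxes were found in 13.6% of all windows, STAT letters in 8.30% and ETS letters in 14.9%, and neither of the last was found in the 7 genes. The windows of Slc28a3, Shf, Duox1 and 9130230L23Rik held none of the 4 motifs. A match in these windows is a description of the letters and was not tested for binding.

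Expression was given as FPKM, the fragments of a gene scaled to its length and to the size of the library, so levels can be set side by side between genes. In bulk tissue, more cells of a type and more RNA per cell cannot be told apart. Every gene of the 8 was higher in each of the 9 tumors, injected or not, than in the highest normal sample. For the untreated tumors this is no separate result, since the genes were chosen by their rise from Normal to Tumor. Over the 13031 genes tested with limma, 28.8% were called higher in Tumor than in Normal and 31.7% lower at an adjusted p under 0.05. The counts of called genes in each family below are to be read beside these shares, and were not tested against them. On the plain ratio of mean FPKM, the 7 genes with a normal level above 0 were 14.0- to 211-fold higher in Tumor than in Normal.

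Plet1 was by far the most abundant. It was at 46.5, 20.5 and 36.1 FPKM in the normal glands and at 909, 877 and 756 FPKM in the untreated tumors, which is a mean of 34.4 ± 13.1 against 847 ± 81.1 (SD, n = 3) and a ratio of 24.7. The DMSO tumors held 552, 910 and 554 FPKM and the C646 tumors 681, 794 and 823 FPKM. All tumors lay within a narrow band, and the lowest was 11.9-fold above the highest normal sample.

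Slc28a3 was at 3.76, 1.18 and 3.64 FPKM in the normal glands and at 60.7, 113 and 51.0 FPKM in the untreated tumors, a ratio of 26.2. It was at 48.7, 52.7 and 42.8 FPKM in the DMSO tumors and at 42.0, 78.8 and 88.5 FPKM in the C646 tumors. C646 tumors 2 and 3 were above every DMSO tumor, and C646 tumor 1 was below every DMSO tumor. Its paralog Slc28a1 was close to 0 in all groups, with group means at or below 0.0246 FPKM. Of 12 tested genes of nucleoside transport and salvage, 8 were higher in Tumor than in Normal and 1 was lower. The equilibrative transporter Slc29a1 rose from a mean of 64.8 to 424 FPKM (log2 difference 2.65, limma adjusted p = 0.000204) and Slc29a4, a transporter of monoamines and adenosine, from 0.527 to 10.9 FPKM (4.29, adjusted p = 2.9e-05). Thymidine kinase Tk1, an enzyme of dividing cells, rose by 3.06 and cytidine deaminase Cda by 3.63 on the log2 scale, with adjusted p of 0.00158 and 0.00119, while uridine-cytidine kinase Uck1 fell by 2.23 (adjusted p = 5.8e-05). Slc29a3 was also counted as higher (0.38, adjusted p = 0.0367), and its call was lost in 8 alternatives.

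Faim2 was nearly silent in the normal glands, at 0.180, 0.0842 and 0.312 FPKM. It stood at 12.1, 11.2 and 15.0 FPKM in the untreated tumors, a ratio of 66.7, at 14.5, 11.4 and 7.79 FPKM in the DMSO tumors and at 15.9, 12.5 and 8.03 FPKM in the C646 tumors. The lowest tumor was 25.0-fold above the highest normal sample, the widest such gap among the 7 genes with a normal level above 0. Of 10 tested genes of its TMBIM family and of the Fas pathway, 2 were higher in Tumor and 5 lower. The higher genes were Tmbim1 (log2 difference 1.11, adjusted p = 0.00171) and Tmbim6 (0.84, adjusted p = 0.00845), both of the TMBIM family. The family members Grina (-1.10, adjusted p = 0.00155) and Ghitm (-1.48, adjusted p = 0.000547) were lower. So were Fas, the death receptor that Faim2 acts on (-0.86, adjusted p = 0.0212), Casp8, the caspase it recruits (-0.95, adjusted p = 0.00124), and Cflar, an inhibitor of that caspase (-1.02, adjusted p = 0.00287). The call of Fas was lost in 6 alternatives.

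Shf was at 10.2, 9.08 and 6.23 FPKM in the normal glands and at 232, 147 and 264 FPKM in the untreated tumors, a ratio of 25.2. In the DMSO tumors it was at 348, 140 and 124 FPKM, and in the C646 tumors at 130, 110 and 102 FPKM. The DMSO group was spread by its first tumor, while the 3 C646 tumors lay close together at the low end. Of 7 tested SH2 adaptors and PDGF genes, 2 were higher in Tumor and 4 lower. The adaptor Shb (0.89, adjusted p = 0.000917) and the ligand Pdgfc (0.90, adjusted p = 0.00763) were higher. The adaptor She (-2.50, adjusted p = 0.000609), the ligands Pdgfb (-0.91, adjusted p = 0.00813) and Pdgfd (-1.82, adjusted p = 0.00396) and the receptor Pdgfrb (-1.97, adjusted p = 0.000251) were lower.

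Duox1 was the least raised of the 7 genes with a ratio. It was at 1.08, 0.998 and 0.933 FPKM in the normal glands, and at 8.62, 26.6 and 6.84 FPKM in the untreated tumors, a ratio of 14.0. In the DMSO tumors it was at 5.15, 13.8 and 21.4 FPKM and in the C646 tumors at 13.7, 33.8 and 30.0 FPKM. The tumors thus differed among themselves several times over, and the lowest was 4.76-fold above the highest normal sample. DUOX1 needs the maturation factor DUOXA1 to reach the cell surface, and Duoxa1 starts 1942 bp from Duox1 on the other strand. Duoxa1 rose from a mean of 4.95 to 77.6 FPKM (log2 difference 3.96, adjusted p = 5.8e-05). The paralog Duox2 and its partner Duoxa2 stayed under 0.40 FPKM on average in all groups. Of 10 tested genes of the NADPH oxidases and peroxidases, 3 were higher in Tumor and 5 lower. Besides Duoxa1 these were the oxidase organizer Noxo1 (2.57, adjusted p = 7.7e-05) and lactoperoxidase Lpo (4.52, adjusted p = 0.000424), an enzyme that uses hydrogen peroxide. Cybb, Ncf1 and Ncf4, parts of the phagocyte oxidase, were lower by 1.73, 2.15 and 1.82 on the log2 scale, with adjusted p of 0.00113, 6.5e-05 and 0.000177.

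Chit1 was listed at 0 in 2 normal samples and at 0.231 FPKM in the other. The untreated tumors held 6.51, 3.25 and 38.9 FPKM, the DMSO tumors 60.7, 6.12 and 4.10 FPKM and the C646 tumors 7.91, 6.40 and 2.04 FPKM. Its ratio of means between Tumor and Normal, 211, was the largest of the 7, and it leaned on 1 tumor at 38.9 FPKM. A pair of tumors, Tumor 3 and DMSO 1, stood far above the other 7, which ranged from 2.04 to 7.91 FPKM. Chil1, a chitinase-like lectin without enzyme activity that lies 30636 bp from Chit1, rose from a mean of 17.1 to 1145 FPKM (log2 difference 5.76, adjusted p = 0.000121). Of 4 tested chitinase-like genes, 2 were higher in Tumor, Chil1 and Chid1 (0.99, adjusted p = 0.00162), and 1 was lower, the lysosomal Ctbs (-0.71, adjusted p = 0.0161). Chil3, a marker of alternatively activated macrophages, had group means at or below 0.244 FPKM. The summed level of 7 macrophage markers was 1015 to 1195 FPKM in Normal and 393 to 646.1 FPKM in Tumor. Of the 7, 5 were called lower in Tumor, and C1qa and C1qb were not (limma adjusted p = 0.134 and 0.703). Tumor 3 and DMSO 1, the samples with most Chit1, held 461 and 231 FPKM of these markers (Lyz2 is not counted in the injected tumors). Tumor 3 was the median of its group, and DMSO 1 was the lowest of its group, which ran from 230.6 to 270.3 FPKM. A relation between these markers and Chit1 was not tested.

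Gm19303 was listed at 0 in all 3 normal samples, so no fold is given. It was at 9.41, 1.71 and 13.4 FPKM in the untreated tumors, at 3.18, 13.0 and 6.64 FPKM in the DMSO tumors and at 6.31, 5.74 and 15.4 FPKM in the C646 tumors. Every tumor held the RNA, at levels that differed between mice in each group. 9130230L23Rik was listed at 0 in 1 normal sample and at 0.859 and 0.109 FPKM in the others. It was at 14.9, 8.28 and 9.72 FPKM in the untreated tumors (ratio 34.0), at 15.1, 12.7 and 11.5 FPKM in the DMSO tumors and at 12.6, 11.5 and 12.4 FPKM in the C646 tumors. Its injected tumors were nearly level.

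**Figure D1:**
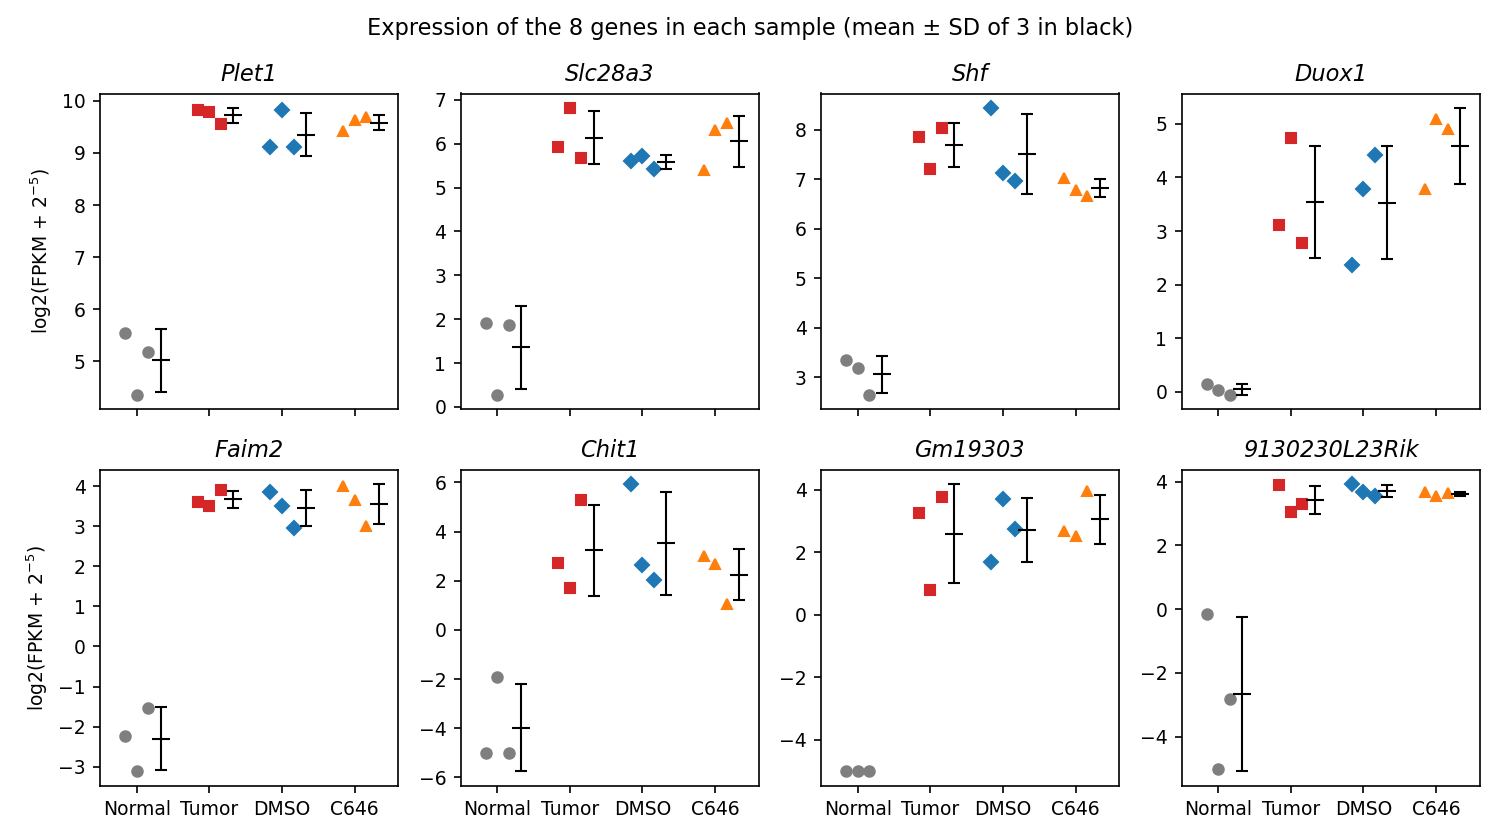
Level of each of the 8 genes, as log2(FPKM + 0.03125) on a vertical axis that differs between panels, in the 3 samples of each group (colored points) with mean ± SD in black, left out for Gm19303 in Normal, which is listed at 0. For all 8 genes the 9 tumors lie above the normal samples. The DMSO and C646 points overlap in every panel, and the share of all genes that do so was not counted.

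The normal glands carried much fat. The summed level of 5 adipocyte markers was 16470 to 21020 FPKM in Normal and 84.3 to 1232 FPKM in Tumor, and that of 4 lymphocyte markers was 180 to 226 FPKM in Normal and under 0.50 FPKM in Tumor. The summed level of 5 luminal epithelial markers (Epcam, Krt8, Krt18, Krt19 and Cdh1) was 401 to 843 FPKM in Normal and 2225 to 3244 FPKM in Tumor, a 4.56-fold higher mean. The untreated tumors also held 1038 to 2820 FPKM of 3 skeletal muscle markers, against 3.68 to 47.4 FPKM in Normal. Of the luminal markers, 4 were called higher in Tumor and Krt19 was not (log2 difference 0.30, limma adjusted p = 0.432). The part of tissue makeup in the differences of the 8 genes was not tested, and that of gland site cannot be told apart from tumor.

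The tumors of the second experiment come from the same mouse strain as the untreated tumors. They can be set only against the same 3 normal samples that served to choose the genes, so their distance from Normal is also a description. In all 8 genes, 6 of 6 injected tumors were above the highest normal sample. Their mean was 18.7-fold (Shf) to 189-fold (Chit1) above that of Normal in the 7 genes with a normal level above 0, with 20.9-fold for Plet1 and 60.9-fold for Faim2. The files of the 2 experiments differ in their gene lists, so the levels across them are set side by side without a test.

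No gene of the 8 was called different between DMSO and C646 tumors. The background was the same, since limma called 0 of 12083 genes higher and 0 lower at an adjusted p under 0.05 (0% called in each direction), with a smallest adjusted p of 0.990. At an unadjusted p under 0.05 there were 169 higher and 215 lower genes, 3.18% of those tested, and none of the 8 was among them. Every member had an adjusted p of at least 0.990. The samples of the 2 groups overlapped for each of the 8. The share of all genes with such an overlap was not counted, so this is only a description.

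Plet1 and 9130230L23Rik were measured most tightly. The C646 minus DMSO difference of Plet1 was 0.23 ± 0.233 on the log2 scale (SE, 95% interval -0.33 to 0.78), so its interval reached down to 0.797 of the DMSO level and up to 1.72 times it (limma p = 0.366, exact permutation p = 0.4). The difference of 9130230L23Rik was -0.10 ± 0.146 (interval -0.44 to 0.25), which spans 0.735 to 1.19 times the DMSO level (limma p = 0.523, exact permutation p = 0.4). A fall below 0.735 of the DMSO level lay outside both intervals.

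Shf, named in both super-enhancer lists, had a difference of -0.68 ± 0.379 (interval -1.58 to 0.21, limma p = 0.114, exact permutation p = 0.2). Its mean was 204 ± 125 FPKM in DMSO and 114 ± 14.5 FPKM in C646 (SD, n = 3). C646 tumors 2 and 3 were below every DMSO tumor, but C646 tumor 1, at 130 FPKM, was above DMSO tumor 3, at 124 FPKM. Without DMSO tumor 1 the difference was -0.22. Duox1, directly beside Shf, differed the other way, by 1.06 ± 0.566 (interval -0.28 to 2.40, limma p = 0.104, exact permutation p = 0.3). Its mean was 13.5 ± 8.15 FPKM in DMSO and 25.8 ± 10.7 FPKM in C646, and C646 tumors 2 and 3 were above every DMSO tumor. Without DMSO tumor 1 the difference was 0.48. Duoxa1, its partner, was at a mean of 44.1 FPKM in DMSO and 77.2 FPKM in C646, a difference of 0.84 with an unadjusted limma p of 0.0266 and an adjusted p of 0.990.

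Slc28a3 had a difference of 0.47 ± 0.28 (interval -0.19 to 1.14, limma p = 0.135, exact permutation p = 0.4). Faim2 had one of 0.10 ± 0.317 (interval -0.65 to 0.85, limma p = 0.756, exact permutation p = 0.7), and Gm19303 one of 0.34 ± 0.577 (interval -1.03 to 1.70, limma p = 0.577, exact permutation p = 0.7). The widest interval was that of Chit1, with a difference of -1.29 ± 1.03 (interval -3.74 to 1.159, limma p = 0.253, exact permutation p = 0.6). Its mean of 23.6 FPKM in DMSO rested on DMSO tumor 1, and without that tumor the difference was -0.09. Of the 8 differences, 5 were above 0 and 3 below. The smallest p that an exact permutation test of 3 against 3 samples can give is 0.1, and a p above the threshold does not show that the tumors were alike.

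**Figure D2:**
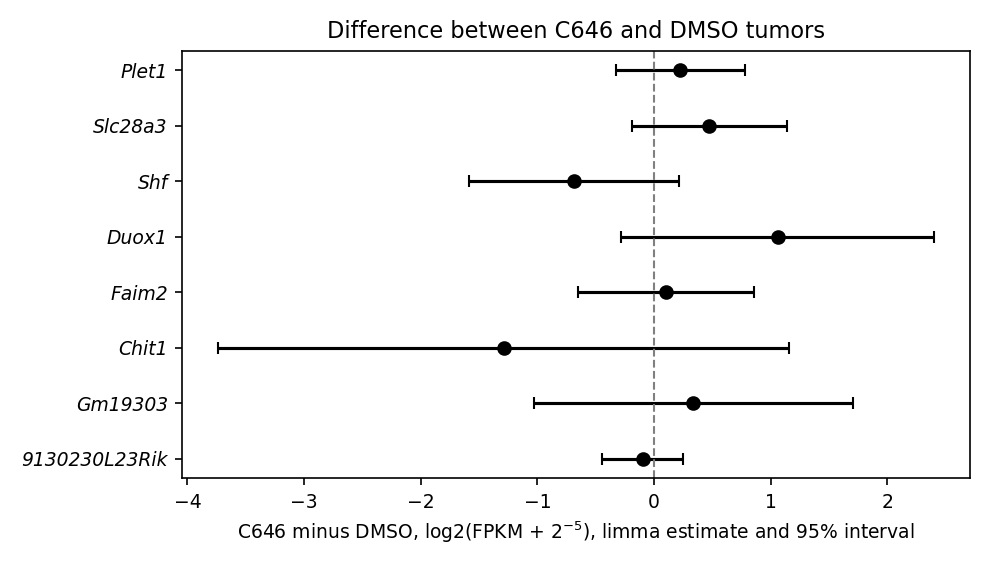
Difference between C646 and DMSO tumors for each of the 8 genes, in log2(FPKM + 0.03125), as the limma estimate (point) with its 95% interval (bar). All 8 intervals include 0 (dashed line), from the narrow one of 9130230L23Rik to that of Chit1, which runs from -3.74 to 1.159.

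The other genes named beside tumor super-enhancers were tested in the same fit. Without the 8, the conventional list held 455 genes that could be tested between C646 and DMSO, of which 12 had an unadjusted p under 0.05 and 0 were called, and their median log2 difference was 0.0028 against -0.015 over all genes tested. In the H3K4me3 list without the 8, 174 could be tested, 4 had an unadjusted p under 0.05 and 0 were called, with a median of 0.0021. Ep300 was at a mean of 8.32 FPKM in DMSO and 10.3 FPKM in C646 (difference 0.33, limma adjusted p = 0.990), and Crebbp at 5.41 and 6.38 FPKM (0.24, limma adjusted p = 0.990). From Normal to Tumor, the mean of Ep300 RNA fell from 8.27 to 3.33 FPKM (-1.31, limma adjusted p = 0.000466), and Crebbp was not called. For the protein, the study reports more p300 in tumors by western blot. C646 acts on the proteins, and their activity was not measured by the RNA data used here. The study also profiled H3K27ac in DMSO and C646 tumors, and reports less of it, with less RNA, at Vegfa after C646. It further describes genes whose expression differed between these groups. Markers of other cells were not even between the injected tumors. The adipocyte markers summed to 9.95 to 46.6 FPKM in DMSO and 55.8 to 282 FPKM in C646. Most of this was Fabp4, with means of 30.6 and 172 FPKM, and Cidec overlapped between the groups. Of the 4 adipocyte markers tested, all had an unadjusted p under 0.05 and 0 were called (limma adjusted p = 0.990 each). DMSO tumor 3 held 105 FPKM of skin keratinocyte markers against at most 4.004 FPKM in the other 5. The same tumor held 270 FPKM of 4 basal epithelial markers (Krt14 is not counted in the injected tumors), against 24.2 to 64.5 FPKM in the other 5. Krt5 alone made up 229 FPKM of the 270. Skeletal muscle markers summed to 226, 238 and 217 FPKM in DMSO tumor 3, C646 tumor 1 and C646 tumor 3, and stayed under 1 FPKM in the other 3. The luminal markers were at 2475 to 2865 FPKM in DMSO and 2202 to 2744 FPKM in C646. The part of these markers in the differences of the 8 genes was not tested.

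The 8 genes differed widely in how steady they were from tumor to tumor. The SD of log2 FPKM within groups, pooled over the 9 tumors, was 0.27 for Plet1 and 0.28 for 9130230L23Rik, near the median of 0.27 over 11832 genes. It was 0.41 for Faim2, 0.49 for Slc28a3 and 0.54 for Shf. It was 0.95 for Duox1, 1.17 for Gm19303 and 1.72 for Chit1, which was more than in 95.1%, 96.9% and 98.5% of genes.

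Shf and Duox1 are neighbors that were both high in tumors, but the tumors with most Shf held least Duox1. In each of the 3 tumor groups, the tumor with the highest Shf had the lowest Duox1, at 264 and 6.84 FPKM in Tumor, 348 and 5.15 FPKM in DMSO, and 130 and 13.7 FPKM in C646. The Shf levels fell into 3 tumors from 232 to 348 FPKM and 6 tumors from 102 to 147 FPKM. Duox1 was 5.15 to 8.62 FPKM in the former and 13.7 to 33.8 FPKM in the latter. Because of this gap only a rank correlation is given over all 9. Spearman's rho was -0.87 (exact permutation p = 0.00451, and 0.0631 after adjustment over the 28 pairs of the 8 genes). Within the 6 tumors Pearson's r was -0.58 (exact permutation p = 0.236) and Spearman's rho was -0.54 (exact permutation p = 0.297). These 6 were set apart by their Shf level, which narrows its range and weakens a correlation. The values within them therefore cannot decide whether the relation holds. Tumor 3 and DMSO 1, with the highest Shf and the lowest Duox1, were also the samples with the most Chit1. The pair of Shf and Duox1 was picked among 28 pairs of the 8 genes after their values had been seen. It did not stand alone. Faim2 and Chit1, on different chromosomes, had a rho of the same size, 0.87 (exact permutation p = 0.00451, 0.0631 after adjustment). Duox1 and Chit1 had one of -0.82 (exact permutation p = 0.0108, 0.1005 after adjustment). By rank, 0 of the 28 pairs passed after adjustment.

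**Figure D3:**
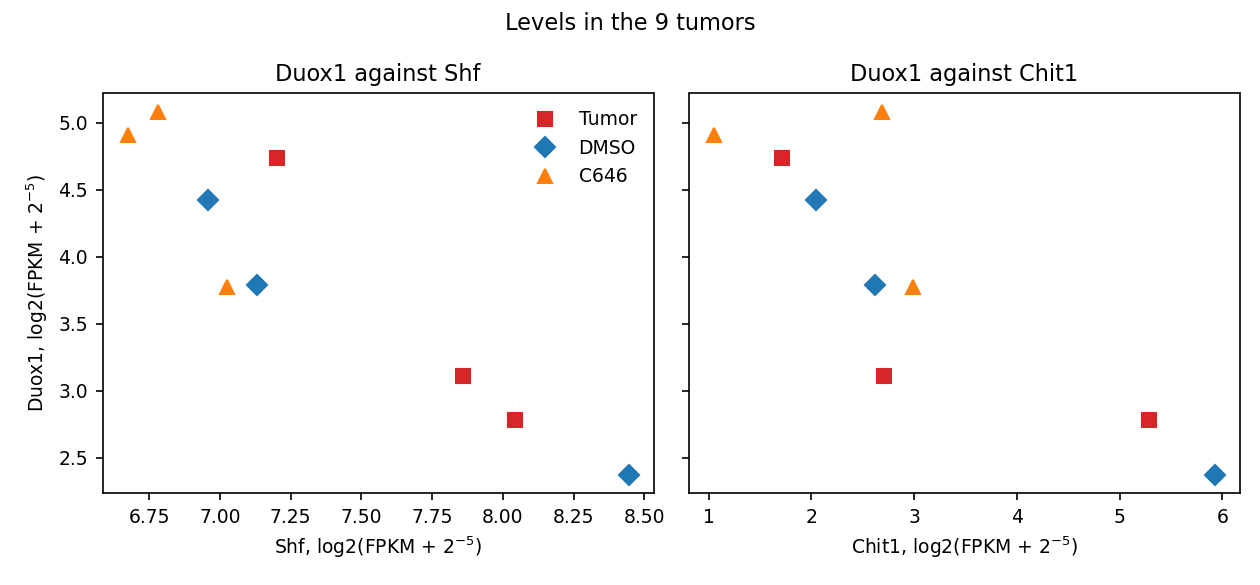
Level of Duox1 against that of Shf (left) and Chit1 (right) in the 9 tumors, as log2(FPKM + 0.03125), with 3 tumors each from the Tumor, DMSO and C646 groups. The 3 tumors with the most Shf hold the least Duox1, and the remaining 6 form a looser group.

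The genes directly beside the 8 were not all higher in tumors. Aqp5, a water channel of glands that lies 62617 bp from Faim2, rose from a mean of 12.4 to 807 FPKM (log2 difference 5.86, adjusted p = 4.2e-05), whereas Aqp2, between them, stayed under 1 FPKM on average in all groups. Rbm47, an RNA-binding protein 12264 bp from 9130230L23Rik, rose from 5.30 to 18.9 FPKM (1.80, adjusted p = 0.000353). On the other side of 9130230L23Rik, Chrna9, which lies 2032 bp away, stayed under 0.25 FPKM on average. Pts, the gene right of Plet1 at 16135 bp, was lower in Tumor (-0.79, adjusted p = 0.00645). So was Ntrk2, a neurotrophin receptor 195692 bp from Slc28a3 (-3.59, adjusted p = 0.000695). Btg2, an antiproliferative gene 32122 bp from Chit1, was also lower (-1.11, adjusted p = 0.000631), although Chil1 on its other side rose. Between C646 and DMSO tumors none of these neighbors was called, and Mybph, 41908 bp from Chit1, had an unadjusted p of 0.00471 (difference 1.21, adjusted p = 0.990).

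**Figure D4:**
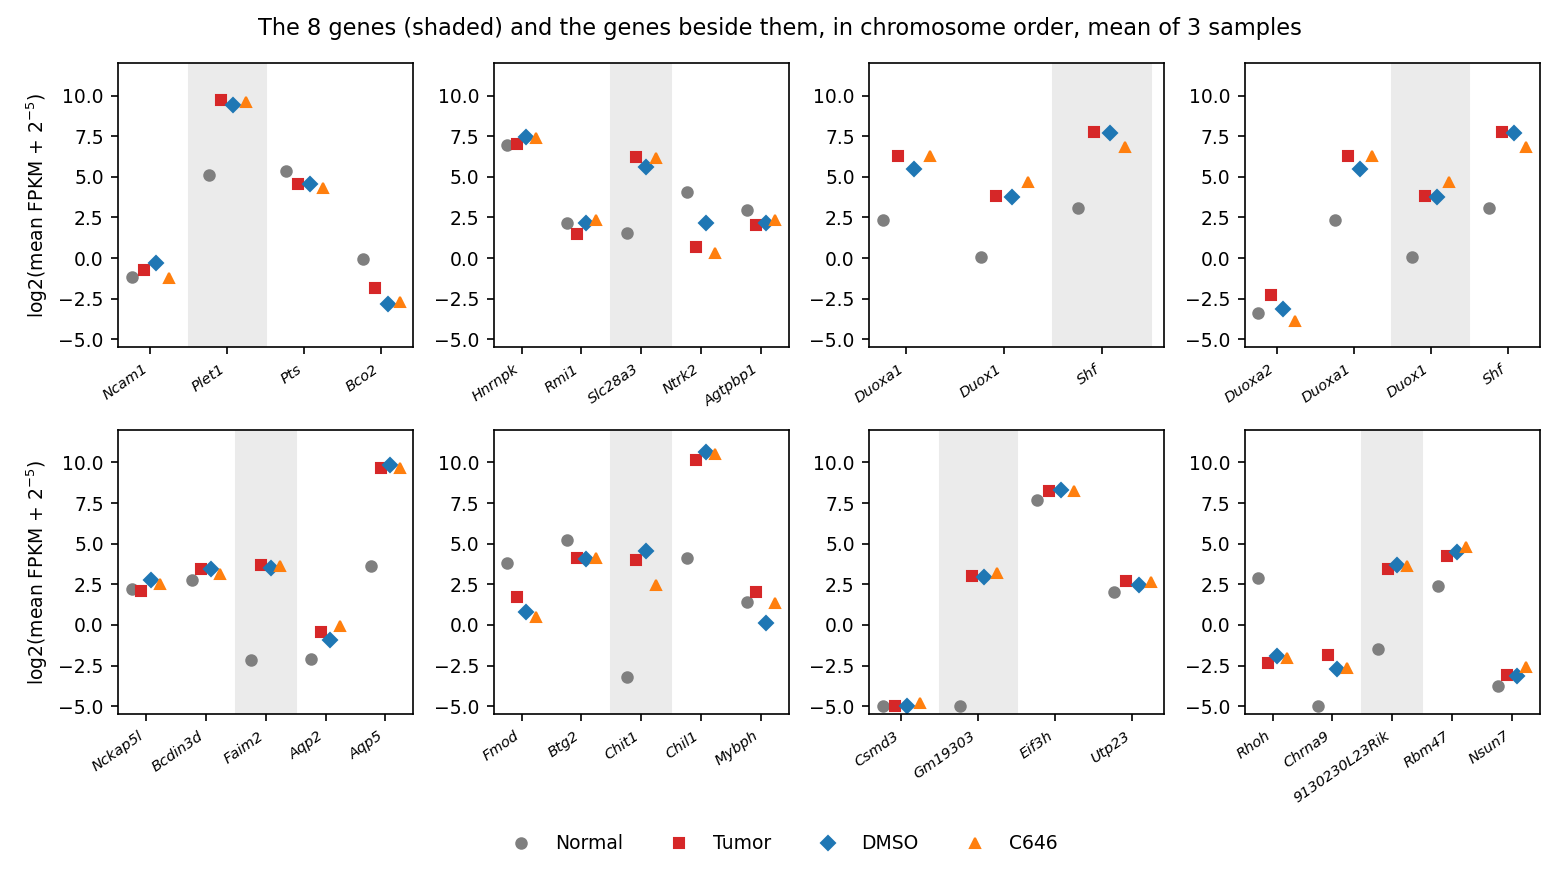
Mean level, as log2(mean FPKM + 0.03125), of each of the 8 genes (shaded) and of up to 2 genes on each side in chromosome order, for the 4 groups. Next to the raised genes, Duoxa1, Aqp5, Chil1 and Rbm47 are higher in the tumors than in Normal, while Pts, Ntrk2 and Btg2 are lower and Chrna9 and Csmd3 stay low.

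The likeness of other genes was measured by the root mean square difference of log2 levels over all 12 samples, after each gene was set to its own mean, among 13232 genes. Most of such a profile is the step from Normal to the tumors, and it says nothing about shared control. Plet1 was closest to Ccdc64b (0.34), Crabp2, a retinoic acid carrier (0.36), and Slc28a3 (0.36), and Slc28a3 was closest to Plet1, Igsf5 (0.38) and Ldb3 (0.40). Shf was closest to the row of Grin1os and Lrrc26 (0.34), Psrc1 (0.37) and Tpd52l1 (0.41). For Duox1 the closest were Lbp, which binds bacterial lipopolysaccharide (0.50), its neighbor Duoxa1 (0.56) and Cml2 (0.59). For Faim2 they were Lcn2, a siderophore-binding protein (0.40), Pde9a (0.50) and Sowaha (0.54). Chit1 and Gm19303 had no close partner, with Scrg1 at 0.84 and Ripply1 at 0.75, and the nearest gene to 9130230L23Rik was A630023A22Rik at 0.74.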

How the data were processed

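RNA-seq of poly-A RNA was analysed in 12 samples, 3 each of Normal, Tumor, DMSO and C646, grouped by the sample labels. The authors used cutadapt for trimming, TopHat2 2.1.1 for alignment to mm10 and Cufflinks 2.2.1 for FPKM, and deposited 1 table of FPKM per gene name and sample. The number of reads was not in these tables, so precision rests on the spread between the 3 replicates. Among the injected tumors, the steps between the lowest FPKM values gave pairwise depth ratios from 0.688 to 1.28. FPKM summed to 526855 to 783719 per sample. Rows without a name (1837 in each Normal and Tumor file) were left out and repeated names summed, and each of the 8 genes had 1 row in each file.

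Differences were tested with limma 3.58.1 (R 4.3.3, eBayes with trend) on log2(FPKM + 0.03125), separately in each experiment, for genes at 1 FPKM or more in at least 3 of 6 samples, with Benjamini-Hochberg adjustment over all genes at 0.05. On this scale the change of a low gene is understated. Within C646 against DMSO, exact two-sided permutation tests were added. The code of the fits was tested on simulated data. Python 3.11.15 was used for the rest. The 8 genes, the gene lists and the motifs were chosen with earlier results of these data known. The genes named are the 8, Ep300 and Crebbp. To these come only a part of the list genes past the threshold, of the close paralogs, of the genes directly beside the 8 and of the 3 nearest in likeness to each. Positions came from GENCODE vM21 and promoter windows from RefSeq, both on GRCm38, the build of mm10. Super-enhancer lists were used for gene names only. Replicate numbers were shared between groups, but samples with the same number did not deviate together throughout (correlations 0.17, 0.07 and 0.11 between DMSO and C646, and -0.04, -0.10 and 0.01 between Normal and Tumor), so the numbers were not used as pairs. Alternatives were pseudocounts of 1 and 0.25, no filter, median-ratio scaling, quantile normalization, a replicate block, all groups in 1 fit, the highest row of repeated names, and leaving out each replicate.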

Additional observations from a re-analysis of the deposited data

How the results depend on the processing

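No gene of the 8 passed the threshold between C646 and DMSO under any alternative, and the smallest limma adjusted p over them was 0.576 (Plet1). The counts of called genes stayed at 0 except for 1 higher gene, Ypel4, with all groups in 1 fit, and 0 to 11 lower genes when replicates were left out. The 11 were called without DMSO replicate 2, and none was among the 8. The fit with a replicate block called 0 genes in either direction between C646 and DMSO, and 3439 higher and 3827 lower between Tumor and Normal, and it changed the call of Slc29a3 and Rmi1 only among the genes named. Leaving out a replicate moved the C646 minus DMSO difference from -0.14 to 0.37 in Faim2, from -0.18 to 0.84 in Gm19303 and from -0.19 to 0.0069 in 9130230L23Rik, so that their direction turned. The other 5 genes kept their direction, from 0.10 to 0.46 in Plet1, 0.27 to 0.80 in Slc28a3, -0.96 to -0.22 in Shf, 0.48 to 1.51 in Duox1 and -2.03 to -0.09 in Chit1. The Tumor minus Normal log2 difference was 3.495 in Duox1, 5.97 in Faim2, 7.21 in Chit1 and 6.08 in 9130230L23Rik. With a pseudocount of 1 it moved by more than the spread between replicates, to 2.67, 3.53, 3.34 and 3.20 in this order. With a pseudocount of 0.25 it moved by more than that spread to 4.91 in Faim2 and 4.97 in Chit1. With quantile normalization it did so to 4.36 in Duox1 and 7.12 in Faim2. All stayed above 0. A larger pseudocount shrinks the difference of a gene near 0 by its construction, and the cause of the shift under quantile normalization was not tested. The median of the H3K4me3 list between C646 and DMSO, with the 4 of the 8 genes it holds, was 0.0032 and became 0.073 with quantile normalization. That setting moved the median C646 minus DMSO difference of all genes from -0.015 to 0.024. It moved the median Tumor minus Normal difference of all genes from -0.016 to 0.12. The difference of Crebbp between Tumor and Normal, -0.05 and not called, turned to 0.44 with quantile normalization and ranged from -0.16 to 0.10 without a replicate. Among the called family genes and neighbors, calls of Cyba, Fas, Slc29a3, Rmi1, Ctbs, Eif3h and Agtpbp1 were lost in 2 to 9 alternatives each, and none of the called genes changed direction.

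With 3 samples a group and the spread seen here, the intervals leave room for sizeable changes in Chit1, Gm19303, Duox1 and Shf. The labels give separate mice for the tumors, while nothing says how samples were handled in batches.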
